A study of Homo sapiens with 3 samples.

Results

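Repeated irradiation was set against single irradiation in CAL-27, a human cancer line derived from tongue squamous cell carcinoma, by small RNA sequencing of mature microRNAs (miRNAs). The comparison took 2 of the study's 3 libraries, RR and Mock, and all 1149 mature miRNAs of the deposited table. By the series' design text, the clones behind RR went through 2 courses of daily 2 Gy X-rays. Each course lasted 5 days and ended in 2 weeks of recovery, after which clones were grown from single cells. Clones behind Mock had 1 exposure of 2 Gy and came from the same parental line, as did the untreated control clones, CC, whose values are given beside the others. Both sides of the comparison were therefore irradiated. Each group had 1 library, and whether it pooled clones or held a single clone is not stated, so the spread between cultures is unknown and p-values are left out. In the labels, the treatment tag of RR gives a dose of 2 Gy and that of Mock says only that cells were irradiated, so the labels do not settle whether RR and Mock were exchanged. Each direction holds for the libraries as they are labelled, and an exchange would turn every ratio round and make RR the library that stands apart from CC.

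A miRNA is cut from a hairpin RNA, and either arm of the hairpin can give a mature strand, named 5p or 3p. The strand loaded into an Argonaute protein pairs with messenger RNAs through its seed, bases 2 to 8 from the 5′ end, and lowers their translation and stability. miRNAs with the same seed share many targets and are grouped in families, and hairpins that lie close together are often transcribed as 1 cluster. In squamous epithelium, miR-205 and the miR-200 family are known for holding cells in the epithelial state, and miR-21 is a widely studied oncogenic miRNA of head and neck tumours.

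The sequences below are those of the deposited table, in which T stands for U, printed 5′ to 3′ with the seed in capitals. They show the first set of results, miRNAs lower in RR than in Mock.
miR-21-5p: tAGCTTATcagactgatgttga
miR-146a-5p: tGAGAACTgaattccatgggtt
miR-16-5p: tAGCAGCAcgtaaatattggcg
miR-206: tGGAATGTaaggaagtgtgtgg
miR-103a-3p: aGCAGCATtgtacagggctatga
miR-103b: tCATAGCCctgtacaatgctgct
miR-7-5p: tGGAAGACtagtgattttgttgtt
miR-3529-3p: aACAACAAaatcactagtcttcca
miR-103b is the exact reverse complement of miR-103a-3p, and miR-3529-3p that of miR-7-5p, which is why each pair is shown together.

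A second set was higher in RR than in Mock and is mostly rich in G and C, apart from miR-1248.
miR-205-5p: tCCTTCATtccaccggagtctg
miR-210-3p: cTGTGCGTgtgacagcggctga
miR-210-5p: aGCCCCTGcccaccgcacactg
miR-615-3p: tCCGAGCCtgggtctccctctt
miR-149-5p: tCTGGCTCcgtgtcttcactccc
miR-339-5p: tCCCTGTCctccaggagctcacg
miR-92b-3p: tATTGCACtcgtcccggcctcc
miR-193b-3p: aACTGGCCctcaaagtcccgct
miR-1248: aCCTTCTTgtataagcactgtgctaaa

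The third set shows near-identical miRNAs whose ratios differed although they share a seed.
miR-320b: aAAAGCTGggttgagagggcaa
miR-320c: aAAAGCTGggttgagagggt
let-7a-5p: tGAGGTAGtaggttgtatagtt
let-7b-5p: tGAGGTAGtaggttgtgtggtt
let-7c-5p: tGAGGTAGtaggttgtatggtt
let-7f-5p: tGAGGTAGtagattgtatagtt
With positions counted from 1 at the 5′ end, miR-320b and miR-320c differ by C20T and by the end of the strand, where miR-320c has 20 bases and miR-320b 22. From let-7a-5p, let-7b-5p differs by A17G and A19G, let-7c-5p by A19G and let-7f-5p by G12A. In RefSeq (GRCh38.p14), 1041 of the 1149 names were found, all with the sequence of the deposited table.

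By the same RefSeq build, miR-21-5p lies at chr17:59841273-59841294 on the plus strand, in an exon of VMP1, and miR-146a-5p at chr5:160485372-160485393, in an exon of the long non-coding RNA MIR3142HG. miR-205-5p lies at chr1:209432166-209432187 in an intron of MIR205HG. Both arms of miR-210 come from a hairpin at chr11:568089-568198 on the minus strand, in an intron of MIR210HG. miR-1248, at chr3:186786675-186786701, overlaps the small nucleolar RNA SNORA81 in EIF4A2, so its reads cannot be told apart from those of a snoRNA fragment. miR-320b has 2 loci on chromosome 1, with hairpins at chr1:116671746-116671817 and, in an intron of NVL, at chr1:224257040-224257110, while both loci of miR-320c are on chromosome 18, at chr18:21683518-21683589 and chr18:24321675-24321746.

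The 3 libraries were of like depth, with totals from 10473400 reads in RR to 10769990 in CC. The miRNAs of the table took 23.2% of these reads in Mock, 20.5% in RR and 16.3% in CC, and levels are given as rpm, reads per 1000000 reads of a library. A count of 3 reads, the floor used here, is 0.282 rpm in Mock and 0.286 in RR. Ranges in parentheses after a value are exact 95% intervals. They cover counting error only and compare 2 libraries, not the treatments. The markers of squamous epithelium, led by miR-205-5p and miR-200c-3p, were present in all libraries, with summed levels of 28369 rpm in Mock, 44137 in RR and 37902 in CC. RNA came from bulk cultures, where fewer cells of a type and less RNA per cell cannot be told apart.

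Of the 1149 listed miRNAs, 208, or 18.1%, averaged at least 10 rpm across the libraries and are called measured. Another 182 had a mean from 1 to under 10 rpm, 759 were under 1 rpm, and 81 had no read in Mock or RR. The profiles of RR and Mock followed each other over the measured miRNAs, with a Pearson correlation of 0.960 between log2 levels. This describes 208 miRNAs of the same 2 libraries, which are not independent points. The median log2 ratio of RR over Mock, taken after adding 1 rpm to each value, was 0.065, or 1.05-fold, with quartiles of -0.35 and 0.51.

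At a threshold of 2-fold on that scale, 17 measured miRNAs were higher in RR (8.17%) and 10 were lower (4.81%), 27 in all (13%). Among the lower, miR-206 and miR-320c were above 10 rpm only in Mock and miR-103b only in CC. They passed the filter only through the library where they were highest. With the mean taken over Mock and RR alone, 17 were higher and 9 lower. All 27 had a counting interval that excluded 1, but so did most other miRNAs at this depth: the interval lay above 1 for 96 of the 208, below 1 for 81, and held 1 for 31. As a share of the reads of the listed miRNAs in place of rpm, the split became 25 higher and 8 lower, with a median log2 ratio of 0.23.

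**Figure D1:**
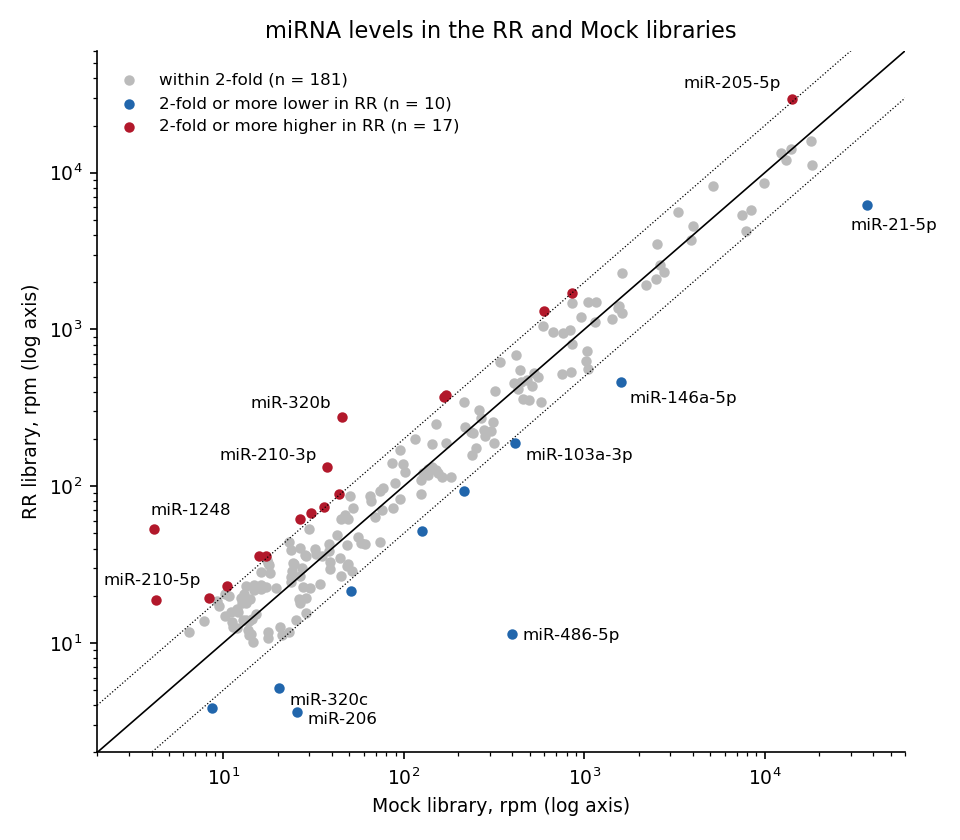
Level of each of the 208 measured miRNAs in the Mock library (x axis) and the RR library (y axis), in rpm on log axes, with the line of equal levels and dotted lines at 2-fold. Red points mark the 17 miRNAs 2-fold or more higher in RR and blue points the 10 lower, among which miR-486-5p, miR-206 and miR-21-5p lie farthest from the line and miR-21-5p is the most abundant.

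The largest shift of reads between the libraries was that of miR-21-5p, whose targets include the tumour suppressor PDCD4. It stood at 36929 rpm in Mock (36814 to 37045), 6209 in RR (6162 to 6257) and 4475 in CC. RR and CC lay close together and Mock stood far above both, so that RR was 5.95-fold lower than Mock (5.898 to 5.997). In the miRNA pool, miR-21-5p took 15.9% of the reads in Mock and 3.03% in RR. The summed miRNA level of Mock exceeded that of RR by 26548 rpm, and the difference in miR-21-5p, 30720 rpm, was larger. Without miR-21-5p, the sums were 194697 rpm in Mock and 198869 in RR. miR-21-3p, from the other arm, stood at 14.3 rpm in Mock and 11.5 in RR, a ratio of 0.801 with an interval of 0.626 to 1.02 that holds 1.

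miR-205-5p moved the other way and was the most abundant miRNA of RR. Its level was 29651 rpm in RR against 14174 in Mock and 25945 in CC, 2.09-fold higher in RR than in Mock (2.08 to 2.10). That difference was 15477 rpm, and again RR lay near CC. The other strand, miR-205-3p, had 5.16 rpm in RR and 4.14 in Mock, with an interval of the ratio from 0.821 to 1.899. Of the 10 miRNAs most abundant over Mock and RR, the other 8 were within 2-fold. Among them miR-200c-3p was at 13918 rpm in Mock and 14184 in RR, and miR-92a-3p at 12318 and 13443. let-7f-5p (18181 and 11258 rpm), miR-221-3p (8381 and 5787) and let-7b-5p (5188 and 8194) were the farthest apart of these.

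The 10 miRNAs lower in RR included miRNAs known from blood, muscle and inflammation. miR-486-5p, a miRNA of red blood cells and muscle, had 398 rpm in Mock (386 to 410), 11.5 in RR (9.50 to 13.7) and 8.73 in CC. It was 34.7-fold lower in RR than in Mock (28.95 to 41.97). miR-206, which is specific to skeletal muscle, stood at 25.5 rpm in Mock, 3.63 in RR and 1.76 in CC and was 7.02-fold lower (4.99 to 10.1). Its seed partner miR-1-3p had 319 rpm in Mock and 404 in RR, so the seed they share had a summed ratio of 1.18. miR-146a-5p, induced by NF-kB and known to repress TRAF6 and IRAK1, had 1591 rpm in Mock, 463 in RR and 403 in CC, 3.44-fold lower in RR (3.33 to 3.55). In each of these 3 the Mock library was far above RR and CC. RR was in turn above CC, by more for miR-206, with 38 reads in RR and 19 in CC, than for the other 2.

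The other red blood cell markers were also highest in Mock. All 5 markers summed to 409 rpm in Mock, 12.4 in RR and 9.47 in CC, but most of that is miR-486-5p itself. The other 4 summed to 11.004 rpm in Mock (117 reads), 0.955 in RR (10 reads) and 0.743 in CC (8 reads). Of the 5, 3 had no read in CC and 2 none in RR, while all 5 had reads in Mock. The defining marker miR-451a was at 7.71 rpm in Mock, 0.764 in RR and 0.743 in CC. miR-144-3p had 26 reads in Mock and none in RR or CC. White blood cell markers, 3 of which are listed, summed to 1.98 rpm in Mock, 0.0955 in RR and 0.0929 in CC, with 2 of the 3 at 0 in RR and in CC and all 3 present in Mock. The 4 muscle markers, by contrast, summed to 345 rpm in Mock, 409 in RR and 341 in CC, most of it miR-1-3p, while miR-133a-3p was at 0.658, 0.859 and 1.02 rpm. The part of these markers in the results was not tested.

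Another 3 of the 10 are expressed in many tissues. miR-16-5p, which represses BCL2 and several cyclins, stood at 127 rpm in Mock, 51.7 in RR and 46.8 in CC, 2.45-fold lower in RR (2.22 to 2.71). let-7c-5p, of a family that represses RAS and HMGA2, had 215 rpm in Mock, 92.6 in RR and 103 in CC, 2.32-fold lower (2.15 to 2.503). miR-103a-3p, encoded in introns of the pantothenate kinase genes PANK3 and PANK2, had 416, 187 and 128 rpm, 2.22-fold lower (2.10 to 2.34). In these 3, too, Mock was the highest library, although for miR-103a-3p RR was also above CC.

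miR-320c was 3.94-fold lower in RR, at 5.16 rpm against 20.3 in Mock, with 5.39 in CC. miR-3529-3p had 21.6 rpm in RR against 50.8 in Mock and 42.6 in CC, and miR-103b 3.82, 8.65 and 21.4. For both RR was the lowest library. miR-103b alone among the 10 was highest in CC, and the intervals of Mock and CC for miR-3529-3p overlap slightly. Both are reverse complements of a far more abundant miRNA: miR-7-5p stood at 7892 rpm in Mock and 4243 in RR, a log2 ratio of -0.90 beside -1.20 for miR-3529-3p, and miR-103a-3p had -1.15 beside -1.002 for miR-103b. How the counting treated strand is not stated, so reads of the 2 partners cannot be told apart with certainty.

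Of the 17 miRNAs higher in RR, miR-1248 and miR-320b differed most. miR-1248 had 4.14 rpm in Mock (3.01 to 5.56), 53.1 in RR and 61.3 in CC, a ratio of 12.8 (9.43 to 17.9). miR-320b had 278 rpm in RR against 45.6 in Mock and 213 in CC, a ratio of 6.10 (5.54 to 6.73). For both, it was the Mock library that stood apart, with low values, and RR was near CC.

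Both arms of miR-210, the classical miRNA of hypoxia and a target of HIF-1, came next. miR-210-3p stood at 133 rpm in RR (126 to 140), 37.7 in Mock (34.1 to 41.6) and 68.1 in CC, 3.53-fold higher in RR than in Mock (3.16 to 3.96). miR-210-5p had 18.8 rpm in RR against 4.23 in Mock and 16.6 in CC, a ratio of 4.44 (3.20 to 6.29). For the guide strand RR was the highest of the 3 libraries and Mock the lowest, with no overlap of the intervals, whereas for miR-210-5p the intervals of RR and CC overlap. These 2 miRNAs form the list of hypoxia-induced miRNAs, and both were past 2-fold, where 8.17% of all measured miRNAs were higher. They are arms of 1 hairpin, with GC contents of 63.6% and 72.7%, in the range of GC content where 11 of 39 miRNAs were higher.

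The remaining 13, miR-205-5p included, lay between 2.00-fold and 2.33-fold, close to the threshold. miR-193b-3p, a repressor of cyclin D1, had 61.5 rpm in RR against 26.4 in Mock and 63.0 in CC, and its other arm, miR-193b-5p, 23.2, 10.4 and 19.3. miR-615-3p, from a HOXC intron, had 373 rpm in RR against 166 in Mock and 256 in CC, and miR-149-5p, from an intron of the glypican gene GPC1, 379, 171 and 296. miR-339-5p, from an intron of C7orf50, stood at 1304 rpm in RR against 599 in Mock and 995 in CC, and miR-92b-3p at 1713, 855 and 1313. All of these were lowest in Mock.

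The other 6 had means under 100 rpm. The arms of miR-296, known from endothelial cells, stood at 67.5 rpm in RR against 30.8 in Mock and 40.7 in CC for miR-296-3p, and at 19.3, 8.28 and 17.9 for miR-296-5p. miR-139-5p had 74.1 rpm in RR against 36.0 in Mock and 74.7 in CC, with overlapping intervals in RR and CC. miR-1343-3p (89.1, 43.7 and 68.8 rpm), miR-185-3p (35.8, 15.7 and 26.3) and miR-1275 (36.1, 17.2 and 25.3) completed the set. In each of the 17 Mock held the lowest level of the 3 libraries. Since the 17 were chosen for a level lower in Mock than in RR, only the place of CC was free.

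**Figure D2:**
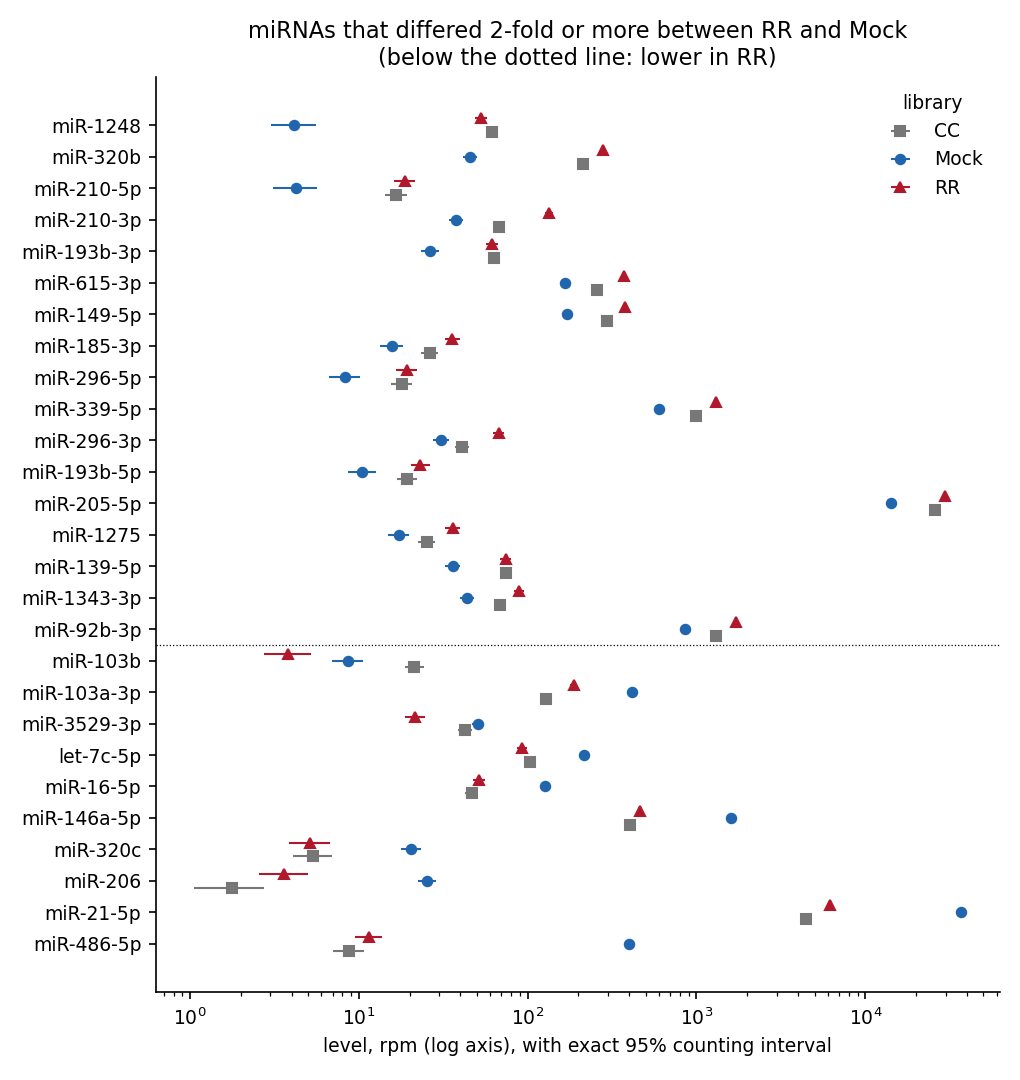
Levels in rpm (log axis) of the 17 miRNAs higher and, below the dotted line, the 10 lower in RR than in Mock, for CC (squares), Mock (circles) and RR (triangles), with exact 95% counting intervals. In all but miR-103b the Mock point lies at the end of the 3, below both others for the 17 and above both for the remaining 9. The choice by ratio fixes the order of Mock and RR, so only the place of CC was free.

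The ratio followed the base composition of the miRNA. Over the 208 measured miRNAs, GC content and log2 ratio had a Spearman correlation of 0.60 and a Pearson correlation of 0.42. It was 0.64 among the 93 with a mean of 100 rpm or more, 0.53 among those from 1 to under 10 rpm, and 0.57 among the 181 within 2-fold. These miRNAs share the same 2 libraries, and no test was made. A fitted line had a slope of 0.31 on the log2 scale for each 10 percentage points of GC. For length the Spearman correlation was -0.084.

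In 5 bins of GC content the median log2 ratio climbed at each step, from -0.38 in the 53 miRNAs of 22.2% to 40.9% GC to -0.11, -0.0085, 0.32 and then 0.74 in the 39 of 60.9% to 77.3%. In the lowest bin 11 of 53 miRNAs had a ratio above 0 on the log2 scale, and in the highest 36 of 39, beside 113 of all 208. The lowest bin, which holds miR-21-5p, let-7a-5p and let-7f-5p, took 52.1% of the measured reads in Mock and 34.1% in RR, while the highest took 5.09% and 9.05%. In the lowest bin, miR-21-5p alone made up 36929 of 120113 rpm in Mock and 6209 of 69567 in RR. Of the 17 miRNAs higher in RR, 15 had a GC content over 50% and 11 were in the highest bin, with a median GC of 63.6%. Of the 10 lower, 8 were under 50%, with a median of 45.5%. Of the 181 within 2-fold, 73 were over 50% and 88 under 50%, with a median of 50%.

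Members that ran against this trend were miR-486-5p, low in RR at 63.6% GC, and miR-1248, high in RR at 37.0%. miR-320b and miR-320c, both at 50% GC, stood at 2.58 and -1.79 on the log2 scale. With the linear trend in GC removed from the ratios, 7 miRNAs were past 2-fold higher and 7 lower. Of the 17 higher, 4 stayed, namely miR-1248, miR-320b, miR-210-3p and miR-210-5p, and miR-340-5p, miR-363-3p and miR-1-3p, poor in GC, came past the threshold. Of the 10 lower, 7 stayed, and let-7c-5p (-0.92), miR-103b (-0.93) and miR-3529-3p (-0.68) came within it. The part of GC content in the other results was not tested.

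**Figure D3:**
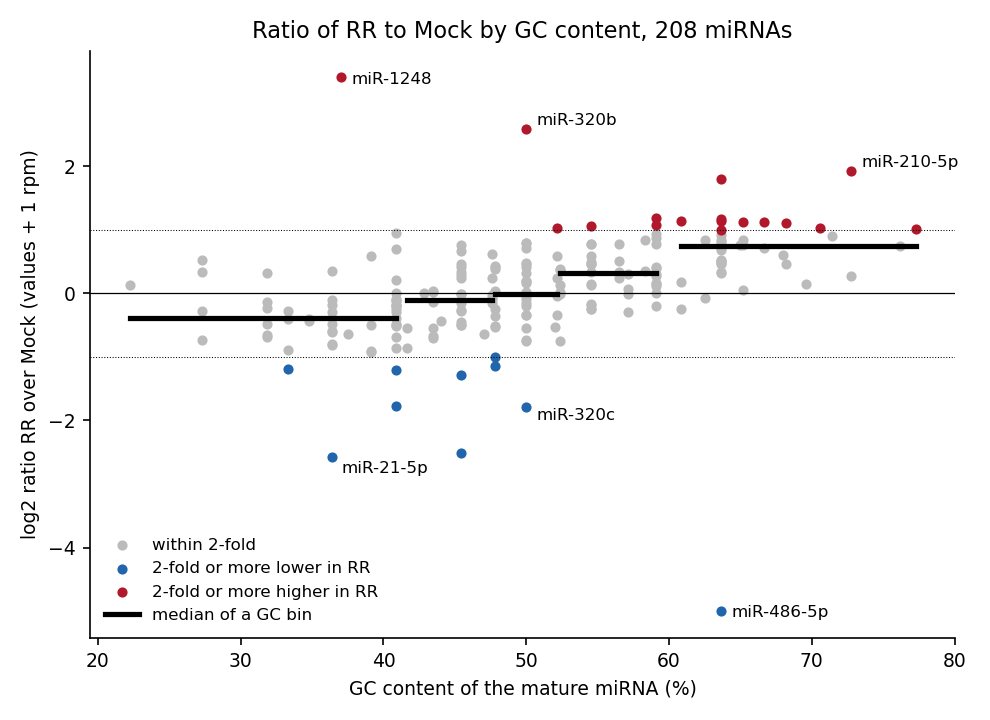
Log2 ratio of RR over Mock (values + 1 rpm) against the GC content of the mature miRNA in percent, for the 208 measured miRNAs, with dotted lines at 2-fold and black bars for the medians of 5 GC bins. The bars climb from -0.38 to 0.74, and miR-486-5p, miR-1248, miR-320b, miR-206, miR-21-5p and miR-320c lie farthest from them.

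The deposited table assigns 204 of the 208 measured miRNAs to a family. Summed over all listed members, 97 families with at least 2 members reached a mean of 10 rpm, and 9 of these were 2-fold or more higher in RR (9.28%) and 5 lower (5.15%). The 9 were mir-210 (3.63-fold, 41.9 rpm in Mock and 152 in RR), mir-296, mir-615, mir-149, mir-877, mir-205, mir-139, mir-1343 and mir-193, the last 8 from 2.22-fold down to 2.01-fold. The 5 were mir-486 (34.2-fold lower), mir-21 (5.94-fold), mir-146 (3.37-fold), mir-19 (2.24-fold, from 34.8 rpm to 15.6) and mir-103 (2.23-fold, from 439 rpm to 196). mir-877 and mir-19 have no member in the set of 27: miR-19b-3p alone was at -0.93 on the log2 scale, and miR-19a-3p, at 10.4 rpm in Mock and 3.25 in RR, had a mean under 10 rpm.

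In 17 families 3 or more members were measured, 84 miRNAs in all. Of these 84, 7 were past 2-fold, in 5 families, beside 13% of all measured miRNAs, and the median of most families lay near that of all miRNAs. All members lay on 1 side of 0 in 6 families: mir-15, mir-221 and mir-181 below, and mir-500, mir-423 and mir-193 above. In the other 11 the members were spread over both sides.

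Lowest in RR were mir-15 and mir-221, both with a median of -0.75. The 4 members of mir-15 that were measured ran from miR-16-5p at -1.28 through miR-16-2-3p (-0.82) and miR-15b-5p (-0.68) to miR-15b-3p (-0.60), and all come from the MIR15B and MIR16-2 hairpins in SMC4 or, for miR-16-5p, also from MIR16-1. Summed, the family had 417 rpm in Mock, 230 in RR and 238 in CC. miR-221 and miR-222, which repress the cell cycle inhibitor CDKN1B, gave -0.80 for miR-221-5p, -0.75 for miR-222-3p and -0.53 for miR-221-3p, with a sum of 8989 rpm in Mock, 6147 in RR and 5132 in CC. The mir-181 family followed, with miR-181b-5p at -0.51, miR-181a-5p at -0.36 and miR-181a-3p at -0.35. Summed, mir-181 had 779 rpm in Mock, 588 in RR and 587 in CC, so that in all 3 families Mock was highest.

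Highest were mir-193, with a median of 1.08 and miR-193a-5p at 0.42 beside the arms of miR-193b, and mir-423, with a median of 0.64. miR-423-3p had 5626 rpm in RR against 3309 in Mock and 4928 in CC, a ratio of 1.70 (1.68 to 1.72), and miR-423-5p 1494, 1045 and 1189. The 2 strands of miR-3184 lie opposite miR-423 and are its exact reverse complements, with miR-3184-5p at 0.83 on the log2 scale and miR-3184-3p at 0.34. Here too, reads of the 2 partners cannot be told apart with certainty, so the like direction of the mir-423 members may not come from separate reads. The mir-500 family, from a cluster on the X chromosome, had miR-500a-3p at 0.58, miR-501-3p at 0.46 and miR-502-3p at 0.19. The 3 families have a GC content of 50% or more in every measured member.

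**Figure D4:**
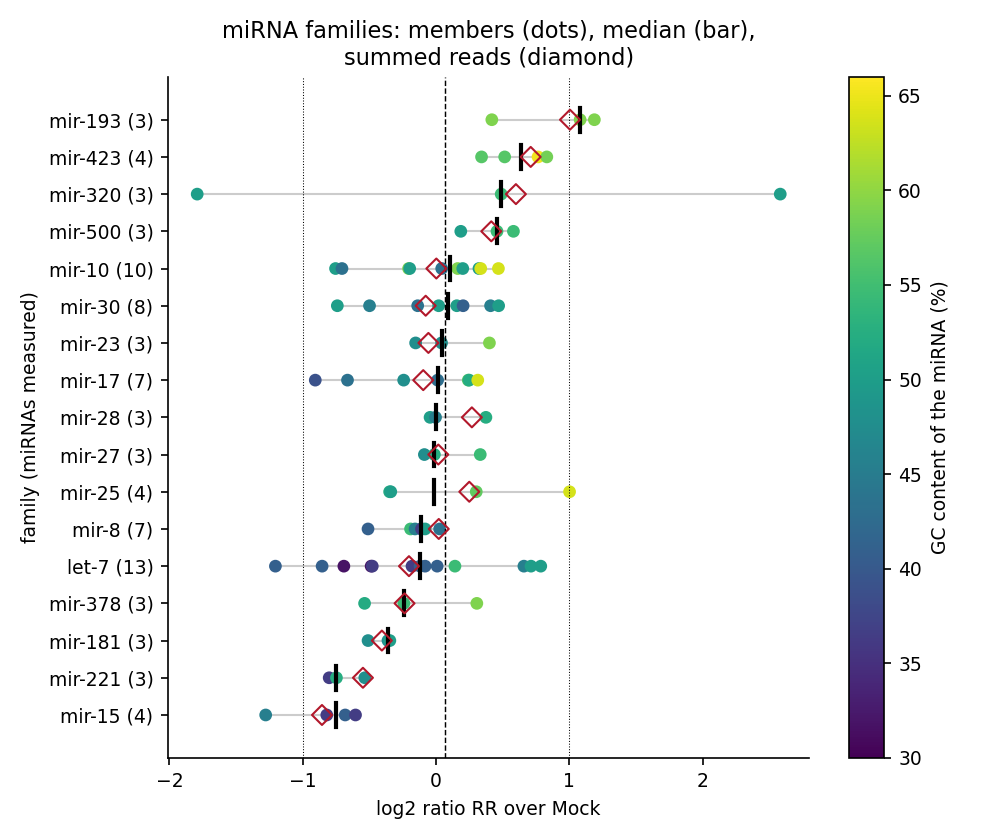
Log2 ratio of RR over Mock for each measured member (dots, coloured by GC content in percent) of the 17 families with 3 or more, with the median (black bar), the ratio of summed reads (diamond), the median of all measured miRNAs (dashed line) and 2-fold (dotted lines). Medians run from -0.75 in mir-15 to 1.08 in mir-193, and within let-7, mir-17 and mir-10 the members poorer in GC lie mostly to the left.

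GC content and ratio were related both between and within these families. The Spearman correlation of family median GC with family median log2 ratio was 0.56 over the 17 families, and that of each member's deviations from the medians of its family was 0.53 over the 84 miRNAs. In mir-10, the largest family after let-7, miR-99a-5p (-0.75) and miR-10a-5p (-0.71) were lowest and the arms of miR-99b, at 63.6% GC, highest, with miR-99b-5p at 0.47 and 2529 rpm in Mock against 3499 in RR. Their sum was level, at 18916 rpm in Mock and 18947 in RR. In mir-17, miR-20a-5p (39.1% GC) stood at -0.91, with 1049 rpm in Mock and 560 in RR, and miR-106b-3p (63.6%) at 0.31. In mir-25, miR-92b-3p (63.6% GC) was highest, at 1.00, while miR-92a-1-5p (52.2%) and miR-25-3p (50%) were lowest, at -0.35 and -0.34. mir-30 did not follow GC at its ends: miR-30c-2-3p was lowest, at -0.74, and miR-30b-3p highest, at 0.47, and both have 50% GC. mir-8, the miR-200 family that represses ZEB1 and ZEB2, had the narrowest range of the 5 families with 7 or more measured members, from miR-141-3p at -0.51 to miR-200c-3p at 0.027.

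let-7, the family with the most measured members, illustrates the spread among near-identical strands. Its 9 guide strands share the seed shown above. let-7f-5p, at 31.8% GC, had 18181 rpm in Mock, 11258 in RR and 7820 in CC, a log2 ratio of -0.69. let-7a-5p, which differs from it in 1 base, had 17947, 15839 and 11155 rpm and a log2 ratio of -0.18. let-7b-5p, at 45.5% GC, had 5188, 8194 and 5670 rpm and the highest log2 ratio of the guides, 0.66. Between these, miR-98-5p was at -0.49, let-7g-5p at -0.48, let-7i-5p at -0.12, let-7d-5p at -0.082 and let-7e-5p at 0.0086. let-7c-5p did not follow the order by GC: at 40.9%, the same as let-7d-5p and let-7i-5p, it had the lowest ratio, -1.20. The 9 guides summed to 67108 rpm in Mock, 57456 in RR and 39129 in CC, a ratio of 0.856 (0.853 to 0.859). Of the opposite strands, let-7b-3p (0.71) and let-7d-3p (0.79), both at 50% GC, were high, and let-7f-1-3p (-0.85), at 40.9%, was low. let-7e-3p, with the highest GC content of the measured members, 54.5%, was at only 0.14.

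The miR-320 family was divided most widely. miR-320a-3p, its main member, had 2284 rpm in RR against 1627 in Mock and 1725 in CC, a log2 ratio of 0.49. miR-320b stood at 2.58, while miR-320c (-1.79) and the shorter miR-320d, with 3.01 rpm in Mock and 1.15 in RR, were lower in RR. Levels of miR-320c and miR-320d are a small part of the total, and the 5 near-identical members summed to 1696 rpm in Mock, 2569 in RR and 1945 in CC, 1.51-fold. How the counting assigned reads that fit several members is not stated, so the division among them is uncertain.

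**Figure D5:**
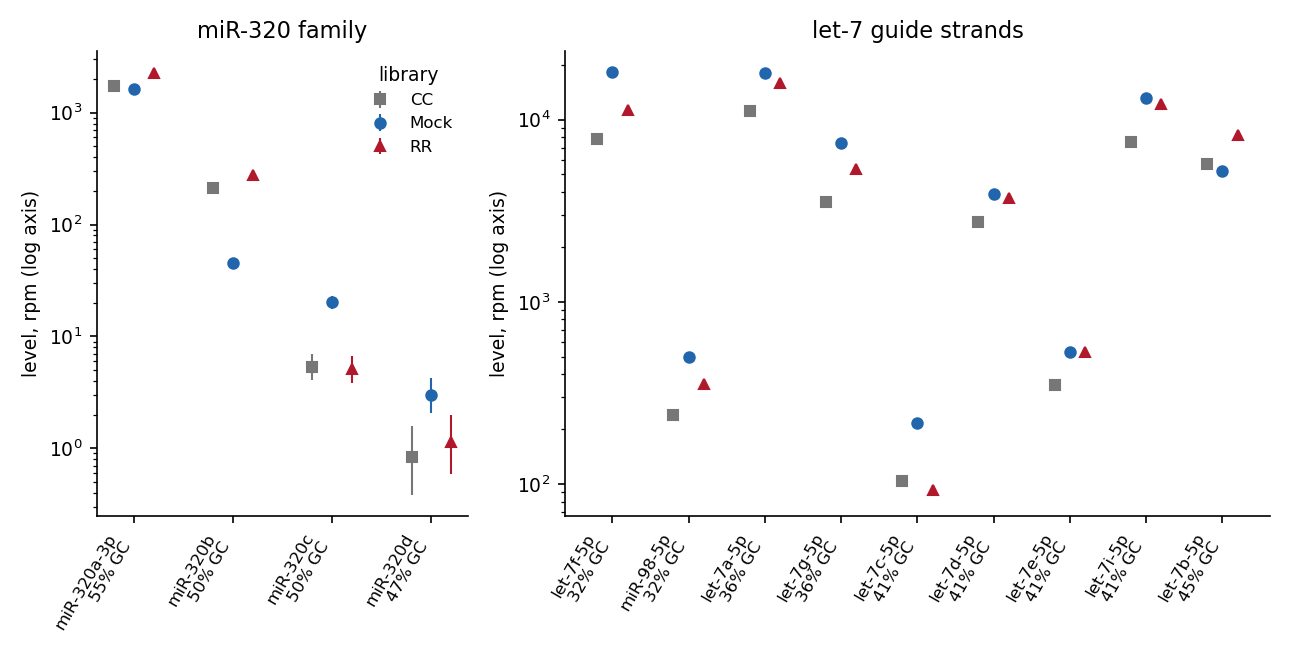
Levels in rpm (log axis) of the miR-320 family and of the 9 let-7 guide strands, with GC content under each name, in CC (squares), Mock (circles) and RR (triangles) with exact 95% counting intervals. RR lies above Mock for miR-320a-3p, miR-320b and let-7b-5p and below it for miR-320c, miR-320d, let-7f-5p and let-7c-5p.

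Of the 27 miRNAs past 2-fold, 6 have a listed miRNA within 2 mismatches. With reads of all such near-identical miRNAs summed, 184 units were measured, of which 16 were higher and 10 lower. miR-146a-5p with miR-146b-5p had a ratio of 0.295, miR-16-5p with miR-195-5p 0.410, miR-103a-3p with miR-107, which differ by G22C, 0.447, and miR-19a-3p with miR-19b-3p 0.445. Summing therefore left miR-146a-5p, miR-16-5p and miR-103a-3p past 2-fold. It took out let-7c-5p, whose let-7 unit had a ratio of 0.856, and both miR-320b and miR-320c, whose joint unit had 1.51. It brought in the miR-19 pair and a group of 13 scarce miR-548 members, both lower. Summed by seed there were 165 units, 14 higher and 7 lower. The seed of miR-16-5p, shared with miR-15b-5p, then came within 2-fold (0.534), as did those of let-7c-5p and miR-206.

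With arms paired by name in RefSeq, both arms were above 1 rpm on average in 86 hairpins. The arms had log2 ratios of the same sign in 55 of the 86, with a Spearman correlation of 0.49 between them over the 86 pairs, which share the 2 libraries, and a median difference of 0.37. In 5 hairpins both arms were past 2-fold the same way, each time higher in RR: miR-210, miR-193b, miR-296, miR-139 and miR-92b. miR-139-3p had 11.5 rpm in RR and 5.17 in Mock, and miR-92b-5p 9.45 and 2.92.

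In 10 hairpins the arms were apart by 1 or more on the log2 scale. In miR-185 the main strand miR-185-5p was nearly level, at 242 rpm in Mock and 219 in RR, and only miR-185-3p was past 2-fold. In miR-146b, miR-146b-5p (-0.55) was lower in RR and miR-146b-3p (0.74), with 1.32 rpm in Mock and 2.86 in RR, higher. In miR-615, miR-615-3p was past 2-fold while miR-615-5p stood at 4.33 rpm in Mock and 4.49 in RR. miR-7-5p (-0.90) and miR-7-1-3p (0.26) were also far apart. Of the 81 hairpins whose arms differ in GC content, the arm richer in GC had the higher ratio in 50, and in 6 of the 10 just described.

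Hairpins within 10 kb of each other on 1 strand formed 24 clusters with at least 2 measured hairpins. In 13 of these all measured members lay on 1 side of 0, 10 below and 3 above. The lowest median, -0.98, was that of MIR99A and MIRLET7C on chromosome 21, at chr21:16539089-16539911, in which miR-99a-5p stood at -0.75 and let-7c-5p at -1.20. MIR15B and MIR16-2 followed (-0.75), then MIR29A with MIR29B1 (-0.68), where miR-29a-3p had 1030 rpm in Mock and 726 in RR. The cluster of MIR182, MIR183 and MIR96, active in sensory and epithelial cells, had miR-182-5p at -0.54, miR-96-5p at -0.49 and miR-183-5p at -0.30. MIR193B with MIR365A, at chr16:14303967-14309371, was highest (1.08), with miR-365a-5p at 0.78. That median leaves out the strand listed jointly as miR-365a-3p and miR-365b-3p, which had 49.4 rpm in Mock and 61.8 in RR (0.32).

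The miR-17~92 cluster on chromosome 13, a set of growth-promoting miRNAs, had a median of -0.35 over 7 strands. It ran from miR-19b-3p at -0.93 and miR-20a-5p at -0.91 to miR-18a-3p at 0.24, so strands cut from 1 transcript differed in sign. Of the listed members of this cluster and its paralogues, 10 were measured, 5 above 0 and 5 below, with a median of -0.12. None was past 2-fold, beside 13% of all measured miRNAs. The paralogue MIR106B with MIR93 and MIR25 had a median of 0.25, with miR-93-5p at 836 rpm in Mock and 993 in RR.

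Lists of miRNAs by pathway were chosen with earlier results of these data known. Their counts are given beside those of all 208 (8.17% higher, 4.81% lower, 95 of 208 below 0, median 0.065). Of 10 miRNAs induced by NF-kB or inflammation, 9 were measured, 0 were higher and 2 lower, miR-21-5p and miR-146a-5p, with a median of -0.55 and 7 of 9 below 0. miR-155-5p, a miRNA of activated immune cells that is also expressed in carcinoma, stood at 842 rpm in Mock, 537 in RR and 487 in CC (-0.65), and miR-9-5p at 303, 224 and 170 (-0.43). miR-132-3p (0.46) and miR-31-5p (0.13) were above 0. The median GC content of this list was 43.5%.

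Of 15 miRNAs that target DNA repair genes, 12 were measured, 0 higher and 2 lower. Their median was -0.60, and 11 of 12 were below 0, beside 95 of all 208. The 2 lower were miR-21-5p and miR-103a-3p. miR-182-5p, which represses BRCA1, had 754 rpm in Mock, 517 in RR and 489 in CC. miR-101-3p, which targets ATM, had 27.6, 22.6 and 15.7 (-0.27), and miR-24-3p, which targets H2AX, 1541, 1364 and 906 (-0.18). Only miR-99b-5p was above 0. This list has a median GC content of 42.6%, which lies in the bin of GC content with a median log2 ratio of -0.11, and the part of GC content in its median was not tested.

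The miR-200 family list had 8 of 9 members measured, none past 2-fold, and a median of -0.13. Of 11 p53-regulated miRNAs 9 are listed and 2 were measured, miR-192-5p at -0.071 and miR-194-5p at 0.34, while miR-34a-5p had 7 reads in Mock, 6 in RR and 1 in CC. Of the squamous markers, miR-205-5p was past 2-fold, miR-203a-3p, known for differentiation of keratinocytes, stood at 39.2 rpm in RR and 23.7 in Mock (0.70), and miR-31-5p, miR-200c-3p and miR-141-3p were within 2-fold.

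Among scarce miRNAs, 46 had 3 reads or more in Mock and none in RR, and 43 the reverse, while 713 had reads in both. Counts were low on both sides, with a median of 3.5 reads for the first and 4 for the second. Only 6 had 10 reads or more, all of them in Mock: miR-7973 with 34 reads, miR-144-3p with 26, miR-1268a with 24, miR-199a-5p and miR-382-5p with 12 each, and miR-146a-3p with 11. The highest in RR, miR-4685-3p, had 9. Read assignment matters here: miR-1268a matches the listed miR-1268b with 0 mismatches, and the pair summed to 7.34 rpm in Mock and 14.6 in RR, the other direction. miR-199a-5p has a partner within 2 mismatches, miR-199b-5p, with reads in both libraries. The median GC content was 46.5% for those found only in Mock and 61.9% for those found only in RR, the same direction as among the measured miRNAs.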

How the data were processed

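Small RNA libraries of 3 samples were analysed, of which RR and Mock were compared. The submitters' processing notes name Bowtie and GRCh38 without saying how they were used. Trimming, and the handling of strand and of reads that fit several miRNAs, are not stated. The deposited values are called TPM by the authors but are RPM: all 1149 values of each column are whole multiples (within 0.01) of 1 step per library, so whole reads, and from them depths, were recovered. Without molecular identifiers, PCR copies count as reads.

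Exact Poisson intervals (levels) and Clopper-Pearson intervals (ratios) were computed from those reads. No test between replicates exists, since each group has 1 library. Log2 ratios add 1 rpm, which understates the change of scarce miRNAs, and 2-fold was the threshold. GC content, seeds and near-identical strands (at most 2 mismatches over 18 bases or more) come from the deposited sequences, families from the deposited table, loci from RefSeq GRCh38.p14, matched by name, and host genes from GENCODE release 29 on the same strand. RefSeq held 189 of the 208 measured names.

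The comparison, the lists and the rule for named miRNAs were chosen with earlier results of these data known. The rule takes all miRNAs past 2-fold, the 10 most abundant, both arms of miR-21, up to 4 members of each family with 3 or more measured, measured members of the lists, and other arms or near-identical strands of these. Names beyond it, such as those in arm pairs, clusters, the rest of let-7 and the miRNAs found in 1 library, were chosen after their values were seen. Alternatives were other pseudocounts, filters, thresholds, scalings and GC corrections. On 1149 simulated miRNAs with counting error alone, 13 of 13 measured miRNAs planted at 3-fold and 18 of 18 at 6-fold passed the threshold, as did 0 of 178 left unchanged. Computation used scipy 1.17.1, pandas 2.3.3, numpy 2.4.6 and, for plots, matplotlib 3.10.9 under Python 3.11.15.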

Additional observations from a re-analysis of the deposited data

How the results depend on the processing

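The counts of 17 higher and 10 lower miRNAs depend on the filter and the threshold. With a mean of 1 rpm or more they were 31 and 19, with no filter beyond 1 read 33 and 24, and 6 and 5 where the mean had to reach 100 rpm. At 1.5-fold they were 46 and 30, and at 4-fold 2 and 3. The count of higher miRNAs was 8 with a pseudocount of 10 rpm, 7 with the linear GC trend removed and 8 with GC bin medians removed. The median log2 ratio, 0.065, became -0.082 at a mean of 100 rpm or more and 0.23 as a share of miRNA reads. The Spearman correlation with GC content was 0.37 with no filter, and, by construction, 0.11 and -0.00606 with the trend or the bin medians removed. Families higher by summed reads numbered 5 with median-ratio scaling, 23 at 1.5-fold, 0 at 4-fold and 3 at a summed mean of 100 rpm or more. Families lower numbered 3 as a share of miRNA reads, 13 at 1.5-fold and 2 at 4-fold. Families with a median below that of all miRNAs were 11 of 17 as reported, 28 of 52 with no filter and 3 of 8 at a mean of 100 rpm or more. A filter changes how many miRNAs or families are tested, and with that the counts. The cause of the other changes was not tested, including those of the median log2 ratio and the Spearman correlation under the filters. In 48 other recomputations counts stayed within 1.5 times those reported, median log2 ratios ran from -0.010 to 0.094 and Spearman correlations from 0.56 to 0.64. Among these, higher miRNAs were 12 with median-ratio scaling and 25 as a share of miRNA reads and families higher 13 as a share. The median log2 ratio changed sign only with median-ratio scaling (-0.010) and the mean of 100 rpm. None of the 27 miRNAs changed sign in the 11 settings that kept single miRNAs and the 2-fold threshold. In each of these that gave a value, 10 were past 2-fold. Lower were miR-486-5p, miR-21-5p, miR-206, miR-320c, miR-146a-5p and miR-16-5p, and higher were miR-210-5p, miR-210-3p, miR-320b and miR-1248. Summing of near-identical miRNAs or of seeds was not among the 11 settings. There, miR-320b and miR-320c fell in a near-identical unit at 1.51-fold, and the seed units of miR-206 and miR-16-5p were within 2-fold. Of the 10, miR-206 and miR-320c were above 10 rpm only in Mock. The log2 ratio of miR-205-5p was 0.98 with median-ratio scaling, and 0.92 and 0.81 with the GC corrections. No paired analysis was possible because each group has 1 library. With 1 library per group and no molecular identifiers, depth limits only scarce miRNAs, where 3 reads are about 0.28 rpm, and the spread between cultures is unknown.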
